A study of Mus musculus with 4 samples.

Results

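The ADAMTS genes encode secreted zinc proteases with thrombospondin repeats, and 8 members of the family (Adamts1, Adamts2, Adamts4, Adamts5, Adamts7, Adamts9, Adamts10 and Adamts12) were followed in mouse embryonic fibroblasts with and without the adaptor protein FAN. Members were taken by gene symbol from the array's probe annotation, keeping probe sets that name 1 gene. This gave 15 of the 34945 such probe sets and 7 of the 18193 genes. Adamts2, a procollagen N-proteinase, had no probe set chosen in this way and was not analysed here. Mouse embryonic fibroblasts (MEFs) are primary cells grown out of embryos, here of C57BL/6 background. FAN, encoded by Nsmaf, binds the receptor of tumour necrosis factor (TNF) and couples it to neutral sphingomyelinase, an enzyme that releases ceramide.

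There were 4 conditions with 1 array each: TNF-treated FAN -/- cells, untreated FAN -/- cells, TNF-treated FAN +/+ cells and untreated FAN +/+ cells. All cells were without serum for 24 h, and treated cells received 50 ng/ml TNF for the last 16 h. The design asks what TNF does to transcripts in these fibroblasts and whether loss of FAN alters it. Titles and source names set the conditions, since the genotype entry goes against the title for 2 of the 4 samples. The labels state neither which part of Nsmaf was deleted nor how many cell preparations lie behind the arrays, so genotype and cell preparation cannot be told apart.

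ADAMTS proteases are made as zymogens, are activated by removal of the propeptide, and cut proteins of the extracellular matrix. ADAMTS1, ADAMTS4, ADAMTS5 and ADAMTS9 cleave the large chondroitin sulphate proteoglycans aggrecan and versican, and ADAMTS4 and ADAMTS5 are known as the aggrecanases of cartilage. ADAMTS7 and ADAMTS12 are closely related and cleave cartilage oligomeric matrix protein (COMP), while ADAMTS10 binds fibrillin microfibrils. TIMP3 is the tissue inhibitor of metalloproteinases that blocks several of them. Inflammatory cytokines such as TNF are known to change the transcripts of some of these genes in cartilage and fibroblasts.

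Values are log2 probe set values as the authors deposited them, and all differences below are differences of these log2 values. The medians of the 4 arrays lay between 6.21 and 6.3. Lower values were raised to a floor, the 50th percentile over all arrays (log2 6.27, a signal of 77.0), which 12224 genes exceeded in 1 or more conditions. Nsmaf was at 7.48 and 7.91 in TNF-treated and untreated FAN -/- cells, against 8.55 and 8.95 in TNF-treated and untreated FAN +/+ cells, a genotype difference of -1.06 ± 0.11 (SE, limma adjusted p = 0.0193) in the direction of the titles. All 8 TNF target genes set as a check of the treatment labels were higher with TNF in both genotypes, from Nfkbia, which encodes an NF-kB inhibitor, to the chemokine gene Ccl5. All 8 fibroblast markers lay above the floor on every array. The macrophage markers Cd68, Adgre1, Ptprc and Itgam and the endothelial markers Pecam1, Cdh5, Tie1 and Emcn were at the floor on all 4 arrays, as were the epithelial markers Cdh1, Krt18 and Krt14. The rest of these lists lay above the floor on every array, 3 of 7 macrophage, 2 of 6 endothelial and 3 of 6 epithelial markers. All 6 smooth muscle markers were above it on every array, with a summed signal of 30858 and 32642 in TNF-treated and untreated FAN -/- cells, against 25981 and 27532 in FAN +/+ cells.

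All 7 measured members lay above the floor on all 4 arrays in the probe set of highest mean, which represents each gene. Of the 15 probe sets, 11 were above the floor on all arrays, 1 on some (Adamts10) and 3 on none (Adamts5, Adamts9 and Adamts12). Single arrays are set against each other without a p-value, since no condition was repeated, and precision is limited by having so few arrays. Only genes past the additive limma fit are said to have risen or fallen. That fit of genotype and TNF covers 11817 genes with 2 or more arrays over the floor. It has 1 residual degree of freedom, the gap between the TNF responses of FAN -/- and FAN +/+ cells. Limma moderates each gene's error by a prior from genes of like intensity, worth 3.52 degrees of freedom, so the printed SE rests more on that prior than on the gene's own gap.

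**Figure D1:**
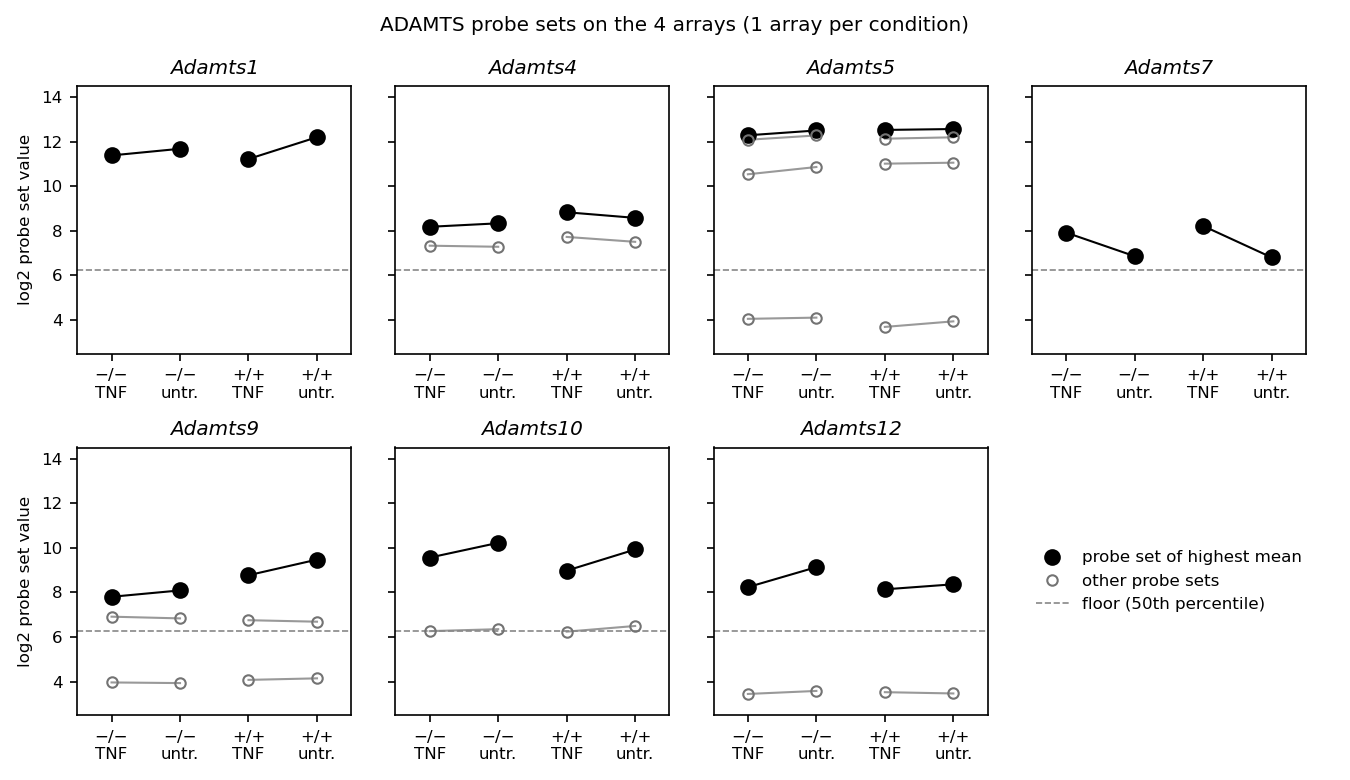
Log2 probe set values (vertical axis) of each ADAMTS gene on the 4 arrays (horizontal axis; FAN -/- with TNF and untreated, then FAN +/+ with TNF and untreated). Filled points are the probe set of highest mean, open points the other probe sets, lines join the arrays of a genotype, and the dashed line is the floor at 6.27. Adamts7 is higher with TNF in both genotypes (7.93 against 6.87 in FAN -/- cells and 8.22 against 6.81 in FAN +/+ cells), and the filled points of Adamts9 are lower on both FAN -/- arrays.

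Adamts7 rose with TNF. Its probe set (1452339_at) gave 7.93 in TNF-treated and 6.87 in untreated FAN -/- cells. In FAN +/+ cells it gave 8.22 with TNF and 6.81 untreated. Both TNF arrays were higher than both untreated arrays, and the untreated arrays of the genotypes differed by 0.054. With 2 arrays on each side such an order is weak evidence, and its share over all genes was not counted. In linear signal this was 243 with TNF and 117 untreated in FAN -/- cells, a 2.08-fold difference. In FAN +/+ cells it was 299 with TNF and 112 untreated, a 2.66-fold difference. Limma gave a change of 1.24 ± 0.14 (SE, adjusted p = 0.0286) over both genotypes.

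Adamts7 was the only one of the 7 measured members at least 2-fold higher with TNF in FAN -/- cells, where 1.35% of all genes above the floor were, and likewise in FAN +/+ cells, where 2.2% were. By limma 1 of the 7 rose, against 1.57% of the genes tested. Adamts7 has no other probe set, and its untreated values lay only 0.54 to 0.60 above the floor. The call was lost when no floor was set (adjusted p = 0.0558) and without the genotype term (adjusted p = 0.294). Without that term 0 genes passed for TNF, against 321 in the main fit, so this loss is not particular to Adamts7. With the floor at the 70th percentile, which lies above both untreated values, the change was 0.23 (adjusted p = 0.338). In RNA of a whole culture, a change in the number of cells that make a transcript and a change in its amount per cell cannot be told apart. The summed signal of the 7 macrophage markers, each at least the floor, was 1099 with TNF and 1536 untreated in FAN -/- cells, and 1242 with TNF and 812 untreated in FAN +/+ cells. As 4 of the 7 were at the floor, this sum varies through the other 3, and its part in the Adamts7 values was not tested.

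Adamts10 had lower values with TNF in both genotypes, and just missed the test. Its leading probe set (1427139_at) gave 9.56 with TNF and 10.22 untreated in FAN -/- cells, and 8.98 with TNF and 9.92 untreated in FAN +/+ cells. Both TNF arrays were below both untreated arrays, which is weak evidence with 2 arrays on each side. The difference was -0.66 in FAN -/- cells and -0.95 in FAN +/+ cells, 1.58-fold and 1.93-fold lower. The limma estimate was -0.81 ± 0.12 (SE, adjusted p = 0.0539). It passed under 3 of 9 other settings, with an adjusted p of 0.0306 with the floor at the 70th percentile, 0.0403 after quantile normalization and 0.00774 with the arrays centred on the median. It did not pass under the other 6, among them no floor (adjusted p = 0.0917) and the fit without the genotype term (adjusted p = 0.628), where 0 genes passed for TNF. The estimate shrank to -0.49 with the mean of all probe sets (adjusted p = 0.103) and to -0.16 with the second probe set (adjusted p = 0.424). The second probe set (1441309_at) lay between 6.24 and 6.49, at or near the floor, and its differences were -0.09 in FAN -/- cells and -0.26 in FAN +/+ cells.

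Adamts12, the relative of Adamts7, had lower values with TNF in both genotypes, but by unequal amounts. It was at 8.24 with TNF and 9.13 untreated in FAN -/- cells. In FAN +/+ cells it was at 8.14 with TNF and 8.36 untreated. The untreated FAN -/- array stood apart from the other 3, which lay within 0.23 of each other. The difference with TNF was -0.90 in FAN -/- cells and -0.23 in FAN +/+ cells, and the limma estimate of -0.56 ± 0.19 did not pass (SE, adjusted p = 0.237). The second probe set lay below the floor on all 4 arrays, between 3.44 and 3.58.

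Among the genes of the proteoglycan-cleaving members, Adamts1 had the largest TNF difference in FAN +/+ cells. It was at 11.39 with TNF and 11.68 untreated in FAN -/- cells, and at 11.22 with TNF and 12.20 untreated in FAN +/+ cells. The untreated FAN +/+ array was the highest of the 4. This was 1.23-fold lower with TNF in FAN -/- cells and 1.97-fold lower in FAN +/+ cells, and limma gave -0.64 ± 0.18 (SE, adjusted p = 0.172), which passed only with the arrays centred on the median (adjusted p = 0.0387). Adamts9 was at 7.80 with TNF and 8.09 untreated in FAN -/- cells, and at 8.77 with TNF and 9.47 untreated in FAN +/+ cells. Its TNF differences of -0.29 and -0.70 gave a limma estimate of -0.49 ± 0.15 (SE, adjusted p = 0.192).

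The aggrecanase genes had the smallest limma estimates for TNF of the 7 genes. The leading probe set of Adamts5 was at 12.29 with TNF and 12.51 untreated in FAN -/- cells, and at 12.53 with TNF and 12.57 untreated in FAN +/+ cells. Its 3 probe sets above the floor gave -0.19 to -0.33 in FAN -/- cells and -0.04 to -0.06 in FAN +/+ cells, and limma gave -0.13 ± 0.08 (SE, adjusted p = 0.471). Adamts4 was at 8.18 with TNF and 8.34 untreated in FAN -/- cells, and at 8.84 with TNF and 8.58 untreated in FAN +/+ cells. The limma estimate for Adamts4 was 0.05 ± 0.15 (SE, adjusted p = 0.893). In the reference gene order Adamts1 and Adamts5 are neighbours on chromosome 16, with no coding gene between them. Their TNF differences in FAN +/+ cells were -0.98 for Adamts1 and -0.04 for Adamts5.

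**Figure D2:**
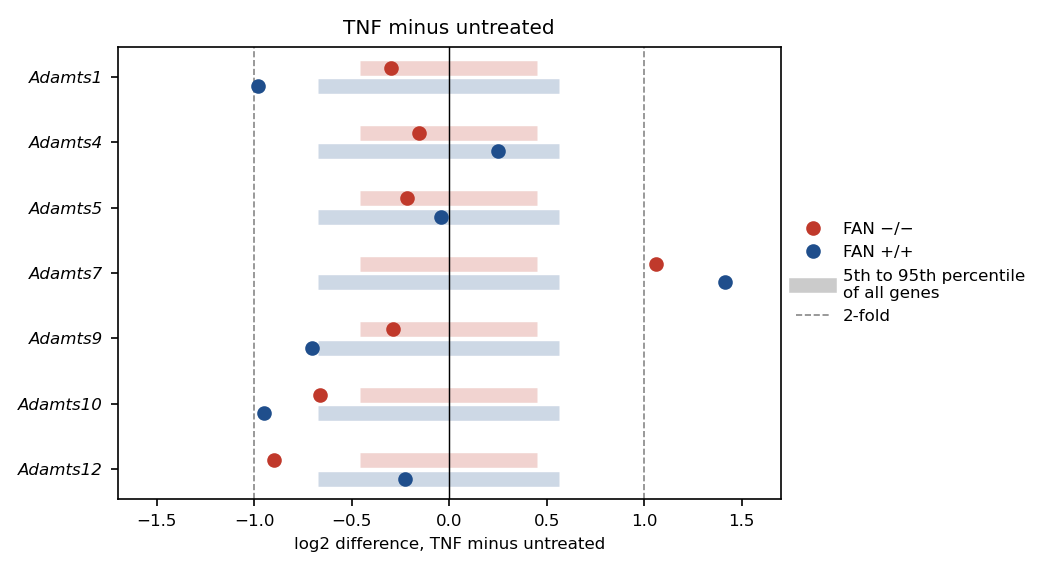
Log2 difference, TNF minus untreated (horizontal axis), of each ADAMTS gene in its probe set of highest mean, 1 array against 1. Red points are FAN -/- cells and blue points FAN +/+ cells, bars span the 5th to 95th percentile of 12224 genes (-0.45 to 0.45 in FAN -/- cells and -0.67 to 0.56 in FAN +/+ cells), and dashed lines mark 2-fold. Adamts7 lies to the right of both bars, Adamts10 to the left of both, and Adamts4 and Adamts5 inside them.

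Over the 7 genes the median TNF difference was -0.29 in FAN -/- cells and -0.23 in FAN +/+ cells, beside 0.01 and -0.03 over all 12224 genes. TNF values were lower in both genotypes for 5 of the 7 (Adamts1, Adamts5, Adamts9, Adamts10 and Adamts12), where 33.9% of all genes were. None was 2-fold lower, where 1.07% of all genes in FAN -/- cells and 1.92% in FAN +/+ cells were, and limma called 0 of 7 lower, against 1.14% of genes tested. Before adjustment, Adamts1, Adamts9, Adamts10 and Adamts12 had limma p under 0.05, where 1250 of the 11817 genes tested were lower at this limit. The 5 genes were picked here for lower values in both genotypes, and none passed after adjustment. At a lower limit of 1.5-fold, 2 members were lower in FAN -/- cells (Adamts10 and Adamts12; background 3.1%) and 3 in FAN +/+ cells (Adamts1, Adamts9 and Adamts10; background 6.5%). At this limit Adamts7 was still the 1 higher member, with backgrounds of 3.19% and 4.75%. Summed signals of several marker lists were lower with TNF in both genotypes as well. For the 4 skeletal muscle markers the sum was 660 with TNF and 987 untreated in FAN -/- cells, and 443 with TNF and 779 untreated in FAN +/+ cells. Of these markers Myod1 and Myog were at the floor on all 4 arrays, and the other 2 were above it. For the 6 chondrocyte markers it was 704 with TNF and 846 untreated in FAN -/- cells, and 1832 with TNF and 3331 untreated in FAN +/+ cells. In FAN +/+ cells Comp alone gave 743 of this sum with TNF and 1950 untreated. For the 8 fibroblast markers the sum was 69534 with TNF and 80551 untreated in FAN -/- cells. In FAN +/+ cells it was 91500 with TNF and 94953 untreated. The smooth muscle sums given above and those of the 6 endothelial markers were also lower with TNF in both genotypes. The macrophage, epithelial and neuronal sums were not. With TNF the epithelial sum was higher in FAN +/+ cells (1045 against 953) and the neuronal sum in FAN -/- cells (608 against 507). The part of all these markers in the lower ADAMTS values was not tested.

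Among the measured members, promoter sequences were at hand for Adamts1, Adamts9 and Adamts12, which all had lower values with TNF in both genotypes. They are shown so that the start regions of these genes can be compared. The sequences are RefSeq's (GRCm38.p6) and run from 250 bases before the annotated start to 50 bases from it on, on the gene's strand, 5′ to 3′. Capitals mark matches, on either strand, to the GC box GGGCGG and to TATAAA.
Adamts1, chr16:85803064-85803363, minus strand: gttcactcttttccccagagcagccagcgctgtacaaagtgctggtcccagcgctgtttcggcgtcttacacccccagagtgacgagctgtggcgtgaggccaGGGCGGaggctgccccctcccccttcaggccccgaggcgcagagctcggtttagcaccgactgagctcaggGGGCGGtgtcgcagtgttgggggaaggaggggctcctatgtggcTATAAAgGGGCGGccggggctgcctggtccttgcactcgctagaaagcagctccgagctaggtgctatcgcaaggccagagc
Adamts9, chr6:92943485-92943784, minus strand: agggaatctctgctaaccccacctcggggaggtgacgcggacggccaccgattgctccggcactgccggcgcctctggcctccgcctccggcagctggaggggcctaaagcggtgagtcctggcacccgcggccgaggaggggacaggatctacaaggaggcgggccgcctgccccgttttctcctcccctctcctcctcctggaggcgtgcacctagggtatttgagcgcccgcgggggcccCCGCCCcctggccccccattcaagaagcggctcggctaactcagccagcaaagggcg
Adamts12, chr15:11064523-11064822, plus strand: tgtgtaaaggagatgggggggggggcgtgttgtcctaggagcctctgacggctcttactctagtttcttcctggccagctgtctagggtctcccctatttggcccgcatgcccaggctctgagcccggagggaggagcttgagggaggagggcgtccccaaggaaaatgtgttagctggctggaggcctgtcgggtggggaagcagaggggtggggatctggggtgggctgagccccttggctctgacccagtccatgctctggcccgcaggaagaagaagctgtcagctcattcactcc

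The Adamts1 promoter held TATAAA starting 32 bases before the start, followed by a GC box, and 3 GC boxes in all. The Adamts9 promoter held 1 GC box, beginning 7 bases before the start, and no TATAAA. The Adamts12 promoter held neither. GC made up 64.7% of the bases of Adamts1 and 62.0% of Adamts12, and more of those of Adamts9, beside a median of 52.7% over 32851 promoters of the same length. Of these, 35.7% held a GC box and 13.6% TATAAA. The NF-kB consensus in the form that needs A or T at the sixth base, found in 4.51% of promoters, and the AP-1 motif TGANTCA, found in 7.81%, were also searched for on both strands and had no match in these 3 windows. With any base at the sixth position, the NF-kB form was found in 8.46% of promoters and matched once here, in Adamts9, beginning 15 bases before the start and overlapping the GC box. A match or its absence describes these letters only.

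Between genotypes, Adamts9 was lower in FAN -/- cells. Its leading probe set (1437785_at) gave 7.80 and 8.77 in TNF-treated FAN -/- and FAN +/+ cells, and 8.09 and 9.47 in untreated FAN -/- and FAN +/+ cells. Both FAN -/- arrays were below both FAN +/+ arrays, again an order of 2 arrays against 2 that is weak evidence. The difference was -0.97 with TNF and -1.38 untreated, 1.96-fold and 2.61-fold lower, and limma gave -1.17 ± 0.15 (SE, adjusted p = 0.0258). The second probe set above the floor (1431399_at) did not share this. It lay at 6.91 and 6.75 in TNF-treated FAN -/- and FAN +/+ cells and at 6.83 and 6.69 in untreated FAN -/- and FAN +/+ cells, 0.16 and 0.15 higher in FAN -/-. As its values began only 0.42 above the floor, that probe set is a weak check. With it the limma estimate was 0.15 (adjusted p = 0.376). With the mean of all 3 probe sets, 1 of them below the floor on all arrays, the estimate was -0.37 (adjusted p = 0.0964). The call was also lost in the fit without the TNF term (adjusted p = 0.245). Only 10 genes passed for genotype in that fit, against 781 in the main one, so this loss is not particular to Adamts9. The Adamts9 call rests on 1 probe set and, like most calls, on the TNF term.

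The summed signals of the 6 chondrocyte and of the 8 fibroblast markers moved with genotype in the same direction as that Adamts9 probe set. The fibroblast sum was 69534 and 91500 in TNF-treated FAN -/- and FAN +/+ cells, and 80551 and 94953 in untreated ones. No other marker sum was lower in FAN -/- cells under both treatments. The chondrocyte sum was 704 and 1832 in TNF-treated FAN -/- and FAN +/+ cells, and 846 and 3331 in untreated FAN -/- and FAN +/+ cells. Of the chondrocyte markers, Acan and Matn1 were at the floor on all 4 arrays. The other 4 (Col2a1, Sox9, Col9a1 and Comp) were above it. Comp and Col2a1, which also appear in the lists below, are among these markers and carry most of the genotype difference of the sum. Untreated, the signal of Comp was 141 in FAN -/- and 1950 in FAN +/+ cells, and that of Col2a1 was 330 and 973. The part of these markers in the Adamts9 difference was not tested.

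The other members differed less between genotypes. Adamts10 was 0.59 higher in TNF-treated and 0.30 higher in untreated FAN -/- cells, and limma gave 0.44 ± 0.12 (SE, adjusted p = 0.118). Adamts4 was 0.65 lower with TNF and 0.24 lower untreated in FAN -/- cells, with the second probe set at -0.39 and -0.22, and limma gave -0.45 ± 0.15 (SE, adjusted p = 0.165). Adamts12 was 0.10 higher with TNF and 0.77 higher untreated in FAN -/- cells, with a limma estimate of 0.43 ± 0.19 (SE, adjusted p = 0.262). Limma gave -0.18 ± 0.18 for Adamts1 (SE, adjusted p = 0.586), -0.15 ± 0.08 for Adamts5 (SE, adjusted p = 0.342) and -0.12 ± 0.14 for Adamts7 (SE, adjusted p = 0.624).

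**Figure D3:**
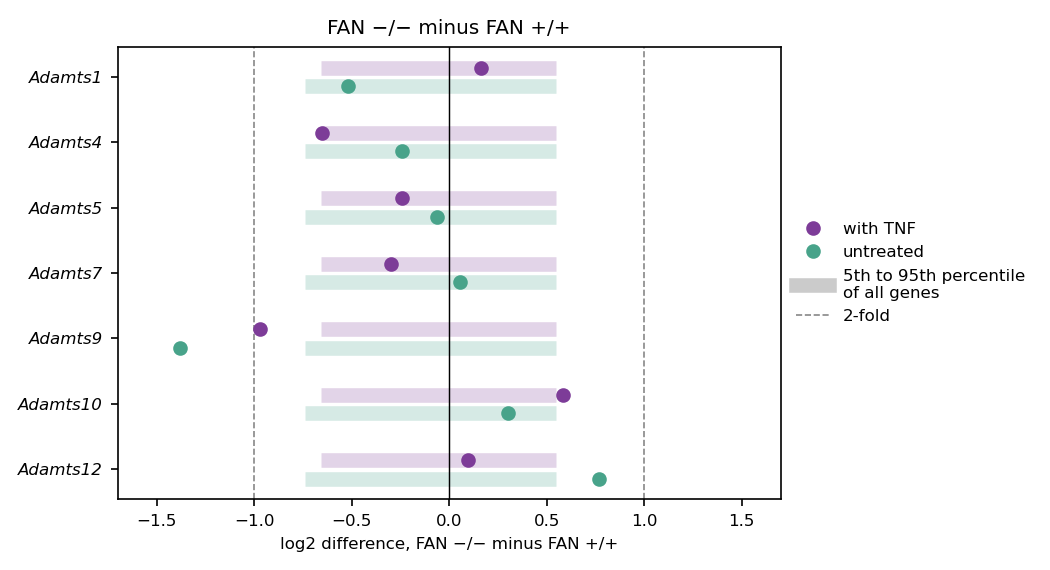
Log2 difference, FAN -/- minus FAN +/+ (horizontal axis), of each ADAMTS gene in its probe set of highest mean, 1 array against 1. Purple points are TNF-treated cells and green points untreated cells, bars span the 5th to 95th percentile of 12224 genes (-0.66 to 0.55 with TNF and -0.74 to 0.55 untreated), and dashed lines mark 2-fold. Adamts9 lies left of both bars, at -0.97 and -1.38.

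By count, 0 of 7 members were 2-fold lower in FAN -/- cells with TNF (background 2.64%) and 1 was untreated (Adamts9; background 2.89%). No member was 2-fold higher with TNF (background 1.55%) or untreated (background 1.45%). Limma called 1 of 7 lower, against 3.67% of genes tested, and 0 higher, against 2.94%. At 1.5-fold, Adamts4 and Adamts9 were lower (background 6.0%) and Adamts10 higher (background 4.47%) in FAN -/- cells with TNF. Untreated, Adamts9 was lower (background 7.39%) and Adamts12 higher (background 4.42%). The medians over the 7 were -0.24 with TNF and -0.06 untreated, beside 0.01 and -0.03 over all genes.

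The TNF differences of the genotypes were then set side by side. No member had responses that were 2-fold apart, where 0.794% of all genes had a 2-fold higher and 0.818% a 2-fold lower response in FAN -/- cells. Adamts1 was the 1 member at least 1.5-fold higher in this sense (0.68; background 3.63%), and Adamts12 the 1 member lower (-0.67; background 2.83%). For Adamts1 the difference came with an untreated FAN +/+ array above the rest, and for Adamts12 with an untreated FAN -/- array above the rest. Adamts7 (-0.35), Adamts9 (0.41), Adamts10 (0.29), Adamts4 (-0.41) and Adamts5 (-0.18) were closer. With 1 array per condition no degree of freedom is left for this difference, and none of it was tested.

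Of 11 other ADAMTS protease genes, 8 had a probe set and 3 lay above the floor (Adamts6, Adamts8 and Adamts16). Adamts6, a protease linked to fibrillin microfibrils, was the 1 of these 3 called higher in FAN -/- cells, against 2.94% of genes tested. It was at 7.56 and 6.66 in TNF-treated FAN -/- and FAN +/+ cells, and at 8.15 and 6.84 in untreated FAN -/- and FAN +/+ cells, a limma difference of 1.11 ± 0.14 (SE, adjusted p = 0.0262). Its second probe set lay below the floor on all arrays and gives no check of this. Adamts6 thus differed between genotypes in the opposite direction to the leading probe set of Adamts9. No gene of this list passed for TNF. Adamts3, Adamts15, Adamts18, Adamts19 and Adamts20 were at the floor on all 4 arrays.

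The ADAMTS-like genes encode secreted proteins that share the ancillary domains of the proteases but lack the catalytic part, and 2 of the 6 above the floor fell with TNF, against 1.14% of genes tested. Adamtsl1 was at 7.19 with TNF and 9.02 untreated in FAN -/- cells, and at 6.54 with TNF and 8.51 untreated in FAN +/+ cells. Its limma change was -1.89 ± 0.12 (SE, adjusted p = 0.0115). Its other probe sets were above the floor on both untreated arrays, but 1 lay below it on both TNF arrays and the other on the TNF-treated FAN +/+ array, so no size is given for them. Adamtsl3 was at 7.84 with TNF and 9.04 untreated in FAN -/- cells, and at 9.24 with TNF and 10.76 untreated in FAN +/+ cells, a change of -1.36 ± 0.13 (SE, limma adjusted p = 0.0222). Adamtsl3 was also lower in FAN -/- than in FAN +/+ cells, with a difference of -1.56 ± 0.13 (SE, limma adjusted p = 0.0127). Thsd4, whose product binds fibrillin microfibrils, was higher in FAN -/- cells (1.19 ± 0.12, SE, limma adjusted p = 0.019). By genotype, 1 of the 6 was thus lower and 1 higher in FAN -/- cells, against 3.67% and 2.94% of genes tested. The median TNF difference of the 6 genes was -0.16 in FAN -/- cells and -0.41 in FAN +/+ cells.

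**Figure D4:**
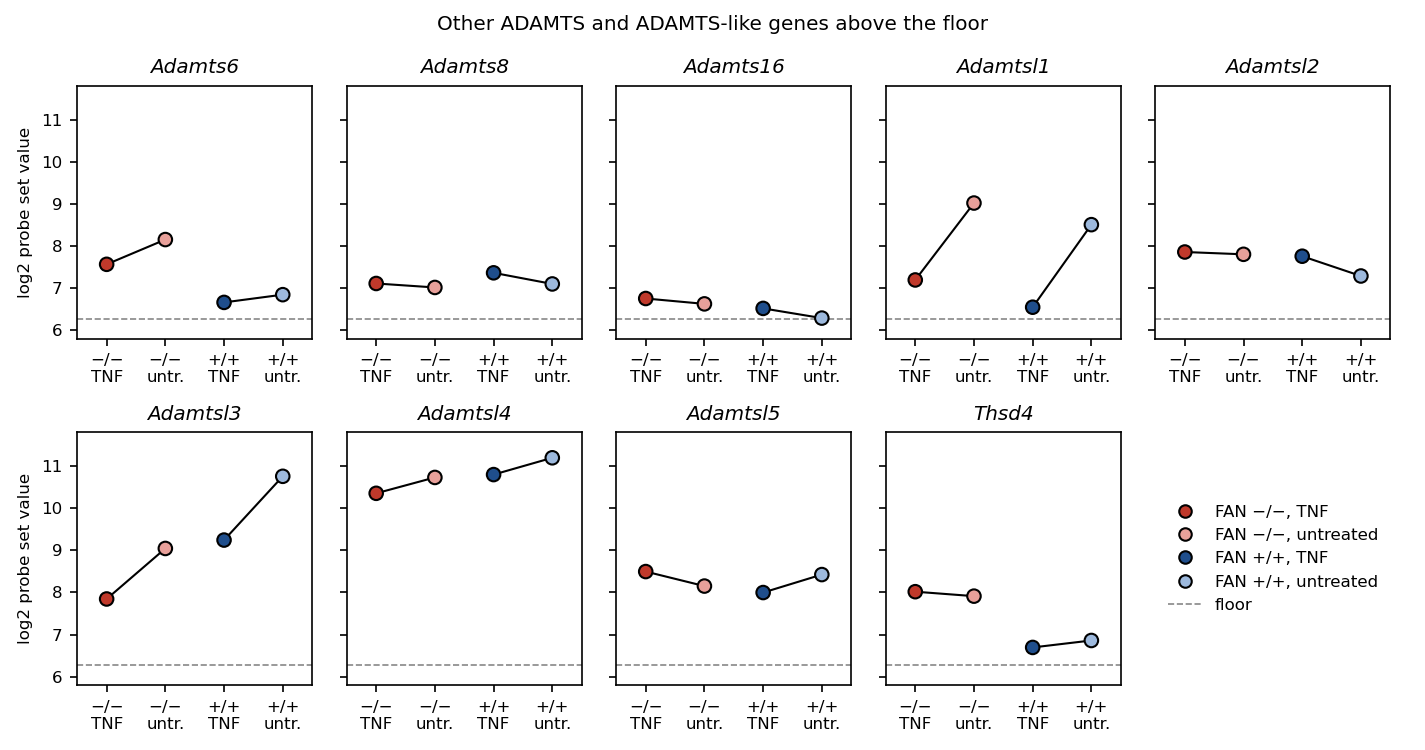
Log2 probe set values (vertical axis) of the other ADAMTS and ADAMTS-like genes above the floor, in the probe set of highest mean, on the 4 arrays (horizontal axis; 1 array per condition). The dashed line is the floor. Adamtsl1 and Adamtsl3 are lower with TNF in both genotypes, and Adamts6 and Thsd4 are higher on both FAN -/- arrays.

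Of 13 proteoglycans and other substrates, 10 lay above the floor, 0 passed the limma test for TNF, and for genotype 4 were lower and 1 was higher in FAN -/- cells (3.67% and 2.94% of genes tested). Comp, a substrate of ADAMTS7 and ADAMTS12, had the largest genotype difference of the list, -3.49 ± 0.18 (SE, limma adjusted p = 0.007). It was at 6.33 and 9.54 in TNF-treated FAN -/- and FAN +/+ cells, and at 7.14 and 10.93 in untreated FAN -/- and FAN +/+ cells. The small leucine-rich proteoglycan genes Fmod (-1.64) and Dcn (-1.64) and the basement membrane gene Nid2 (-1.83) were the other lower genes, and the matrilin gene Matn4 (1.23) the higher one. Acan, which encodes the aggrecan that gives the aggrecanases their name, was at the floor on all arrays. Vcan, which encodes versican, was above it and passed neither test, at 0.18 with TNF in FAN -/- cells and 0.52 in FAN +/+ cells.

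Among 14 inhibitors, activators and clearance genes, 11 lay above the floor, and with TNF 1 rose and 2 fell (1.57% and 1.14% of genes tested). Timp1, an inhibitor of matrix metalloproteinases, rose (limma adjusted p = 0.0245), at 13.20 with TNF and 12.35 untreated in FAN -/- cells, and at 13.72 with TNF and 12.56 untreated in FAN +/+ cells. Reck, a membrane-anchored protease inhibitor, fell (-1.23 ± 0.10, SE, limma adjusted p = 0.0178), as did Pcsk6, a proprotein convertase (-1.09 ± 0.14, SE, limma adjusted p = 0.0424). Timp3 was 0.87 lower with TNF in FAN -/- cells and 0.41 lower in FAN +/+ cells and did not pass. Sdc4, a heparan sulphate proteoglycan of the cell surface, was lower in FAN -/- cells (-0.94 ± 0.16, SE, limma adjusted p = 0.0478). It was the 1 of the 11 that passed for genotype, where 3.67% of genes tested were lower. Its second probe set gave a mean of -0.31.

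Of 8 fibrillin microfibril genes above the floor, Fbn2 (-1.01) and Mfap2 (-1.02) fell with TNF, where 1.14% of genes tested fell. This was the same direction as the values of Adamts10. The second probe sets, above the floor on all arrays, gave a mean of -1.10 for Fbn2 but only -0.48 for Mfap2. Of these 8 genes Mfap5 was higher (1.07) and Ltbp1 lower (-0.60) in FAN -/- cells by limma, against 2.94% and 3.67% of genes tested. Ltbp4 was 1.18 lower in untreated and 0.22 lower in TNF-treated FAN -/- cells and did not pass. Of 9 procollagen and processing genes, Pcolce2, an enhancer of procollagen processing, rose with TNF (1.34 ± 0.10, SE, limma adjusted p = 0.016). Col2a1 was the 1 lower in FAN -/- cells (-1.47). Over all genes tested, 1.57% rose with TNF and 3.67% were lower in FAN -/- cells. The 7 hyaluronan matrix genes tested held 2 that rose with TNF (1.57% of genes tested did), the hyaluronan receptor gene Cd44 (0.95) and the pentraxin gene Ptx3 (0.88). Itih5 was the 1 of these 7 genes lower in FAN -/- cells by limma, against 3.67% of genes tested. It was at 6.68 and 9.56 in TNF-treated FAN -/- and FAN +/+ cells. Untreated, it was at the floor in FAN -/- cells against 9.53 in FAN +/+ cells. The hyaluronan synthase gene Has2 passed neither test, and was at 7.22 with TNF and 7.74 untreated in FAN -/- cells, and at 7.66 with TNF and 6.42 untreated in FAN +/+ cells. None of the 4 genes for secretion modifiers passed a test.

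For the 3 members whose values spanned at least 1 on the log2 scale, the genes with the most similar profile were sought by the distance between mean-centred log2 values over the 4 arrays, among 11810 genes. Closest to Adamts7 were Psmd10 (distance 0.17), Ggct (0.20) and Trim47 (0.25). Psmd10 was at 9.68 with TNF and 8.72 untreated in FAN -/- cells, and at 9.93 with TNF and 8.74 untreated in FAN +/+ cells. Closest to Adamts9 were Ccna2 (0.11), Olfml2a (0.15) and Mecom (0.16), and Ccna2 was at 7.11 and 8.09 in TNF-treated FAN -/- and FAN +/+ cells, and at 7.33 and 8.87 in untreated FAN -/- and FAN +/+ cells. Closest to Adamts10 were Tshz2 (0.09) and 2 loci known only by identifiers. With 4 points each, many genes lie close by, and the distances are a description.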

How the data were processed

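RNA of the 4 conditions was measured on Affymetrix Mouse Genome arrays, 1 per condition. The authors deposited 45101 log2 probe set values per array (log2 as judged from their range of 2.79 to 14.4). MAS5 is named in the submitters' processing notes, while no source names the scaling between arrays. Probe sets were named from the platform annotation, and 34741 of 34945 Entrez identifiers matched the reference gene table. Each gene is its probe set of highest mean, with the floor described above. Genotype and TNF were fitted additively (limma 3.58.1 in R 4.3.3, intensity trend, Benjamini-Hochberg over 11817 genes). P-values rest on the gap between the TNF responses of the genotypes, moderated by the prior from other genes. They measure no spread between repeated cultures, and a real effect of FAN on the TNF response would count as error. Alternatives were other floors, scalings, probe sets and fits. Named genes are the members, up to 4 per related list at least 2-fold apart, every list gene past the test, and the 3 closest profiles. Members, lists and motifs were chosen with earlier results of these data known.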

Additional observations from a re-analysis of the deposited data

Results flagged for a closer look

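For 3 members the differences of the groups pointed in opposite directions. With 1 array per condition none of these differences was tested. Adamts4 was lower with TNF in FAN -/- cells (-0.16) and higher in FAN +/+ cells (0.25), while its second probe set was higher in both, by 0.05 and 0.22. Adamts1 was higher in FAN -/- than in FAN +/+ cells with TNF (0.16) and lower untreated (-0.52). Adamts7 was lower in FAN -/- than in FAN +/+ cells with TNF (-0.30) and 0.0545 higher untreated.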

How the results depend on the processing

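The arrays carry no replicate numbers, and the genotype and TNF terms of the fit already set arrays against each other within genotype and within treatment. The 321 genes changed with TNF by limma became 196 without a floor, 923 (405 higher and 518 lower, against 186 and 135) with arrays centred on the median, 171 with the second probe set and 0 without the genotype term, where 450 higher and 434 lower genes had an unadjusted limma p under 0.05. The 781 genes changed with genotype became 1512, 507 and 10 by centring, by the second probe set and without the TNF term. With the floor at the 70th percentile 0 members were 2-fold apart with TNF in either genotype. With centring 3 were in FAN +/+ cells (Adamts1, Adamts7 and Adamts10). Without it Adamts1 and Adamts10 were just short of the limit there, at -0.98 and -0.95. Centring also moved the median TNF difference over all genes in FAN +/+ cells, from -0.03 to -0.09. The share of all genes 2-fold apart was not counted with centring. In untreated cells 0 members were 2-fold apart between genotypes with the mean of all probe sets or the second probe set. The limit of 1.5-fold, chosen after seeing the data, gave 3 members with TNF in FAN -/- cells, 4 in FAN +/+ cells, 3 between genotypes with TNF, 2 untreated and 2 for the difference of responses. The untreated genotype difference of Adamts9 turned to 0.15, and its limma estimate to 0.15, with the second probe set. The number of arrays and, for Adamts7, the small margin over the floor limit these values.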
